A study of Mus musculus with 55 samples.

Results

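Genes that macrophages and microglia express when they take up and digest lipid-rich debris were followed in the mouse optic nerve head (ONH) after optic nerve crush. They are Cd68, Gpnmb, Acp5, Msr1, Cd36, Cd5l, Trem2 and Lpl, taken by gene symbol from the array annotation: 8 genes of 12393 named genes, measured by 15 single-gene probe sets of 22626. Female C57Bl/6 mice had the left optic nerve crushed for 10 s at 1 mm behind the globe when they were 6 to 8 weeks old, and crushed (left) and contralateral (right) ONHs were collected 1 and 3 days, 1 and 3 weeks, and 3 months later. Naïve mice had no surgery and are listed with the same age of 6 to 8 weeks. Each sample pooled 2 ONHs. The left ONHs of 2 mice made a crushed sample and their right ONHs its contralateral partner, taken here to be the sample with the same replicate number. There were 5 samples in each of 11 conditions, 55 arrays in all.

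A phagocyte that engulfs myelin or other membrane debris has to bind it at the surface, degrade it in lysosomes, and store or export the lipid. Phagocytes filled with lipid droplets are known as foam cells in the artery wall and as myelin-laden macrophages or microglia in injured white matter. The genes cover successive steps: Cd68, Gpnmb and Acp5 encode proteins of the endosome and lysosome, Msr1, Cd36 and Trem2 encode surface receptors for lipid ligands, and Cd5l and Lpl encode secreted proteins that act on lipids or bind them.

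All values are array intensities in arbitrary units and depend on the probes, so levels were not compared between genes. Differences are given as crushed minus contralateral on the log2 scale, with intensities under 20 set to 20. A gene was said to rise or fall where the adjusted p of limma, over all probe sets tested, was under 0.05 and the change was at least 2-fold. The array medians lay between 459 and 554 in the first batch of 45 arrays and between 494 and 598 in the second batch, which held the 10 samples of 3 months. General microglia and macrophage markers (16 genes) summed to 50416 to 64156 in contralateral samples of 1 day to 3 weeks, and 15 of the 16 reached 50 on every array. The markers do not separate resident microglia from macrophages that entered, and in these bulk samples fewer cells of a type and less RNA per cell cannot be told apart.

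At 1 day, Cd68, Acp5 and Msr1 rose and Trem2 fell in crushed samples, while the other 4 genes did not pass (4 of 8 called, where 14.5% of all probe sets tested were called, 7.02% higher and 7.44% lower). At 3 days all 8 genes rose (8.79% of all probe sets called, 6.6% higher and 2.2% lower). At 1 week all 8 rose again (9.73% called, 6.21% higher and 3.53% lower). At 3 weeks 6 rose, all except Msr1 and Cd36 (4.11% called, 2.36% higher and 1.75% lower). The median log2 difference of the 8 genes was 0.55, 2.13, 2.10 and 1.48 at 1 day, 3 days, 1 week and 3 weeks, while the median over all probe sets tested was -0.03, 0.04, 0.02 and -0.00.

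Every crushed sample lay above every contralateral sample for 3 genes at 1 day (22.7% of all probe sets tested), for 8 at 3 days (20.5%), for 7 at 1 week (12.6%) and for 6 at 3 weeks (8.2%). The gene that overlapped at 1 week was Lpl. Cd5l is counted from 3 days on, and the limit given above for its calls holds here too. The plot of log2 differences by time shows Cd68 and Acp5 high from 1 day to 3 weeks. Msr1 was high from 1 day to 1 week and did not pass at 3 weeks. Gpnmb, Cd36, Cd5l and Lpl were first called at 3 days, and Trem2 was the one gene called lower at 1 day.

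**Figure D1:**
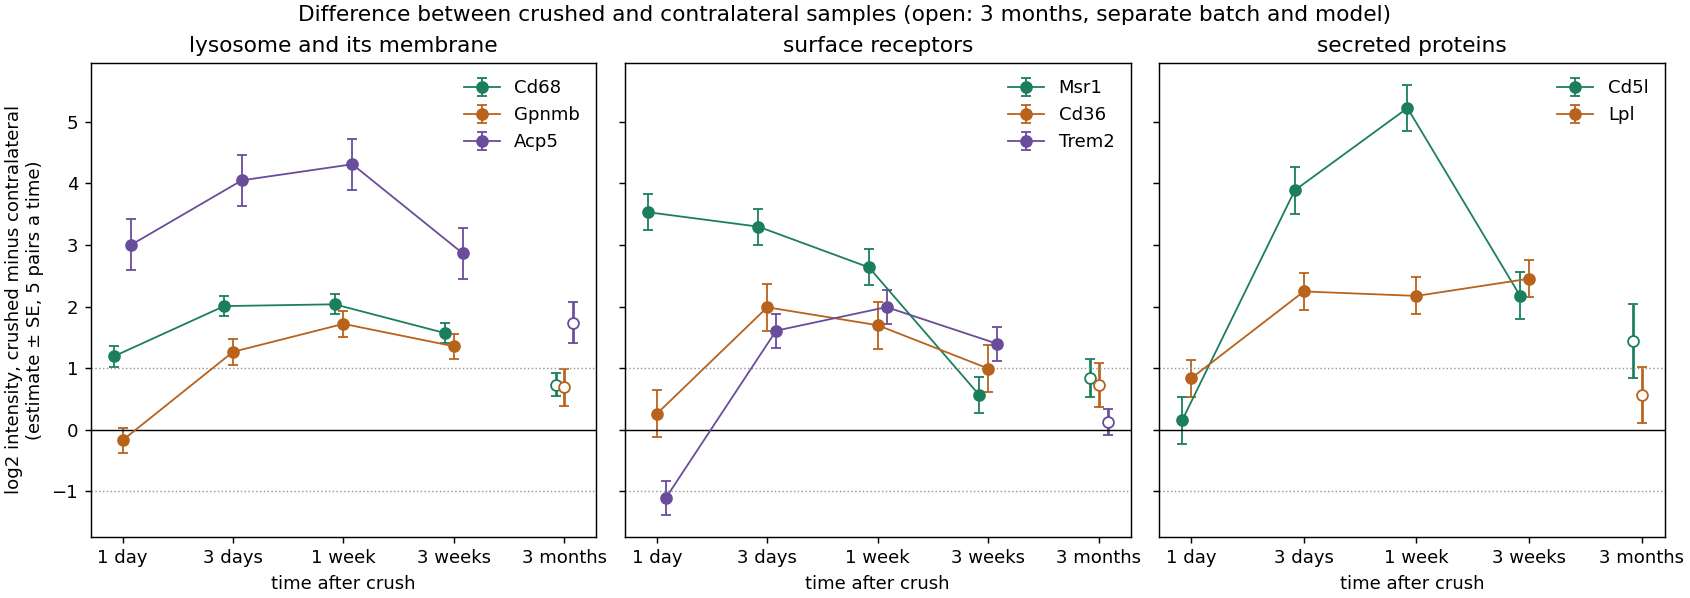
Log2 intensity difference, crushed minus contralateral (y axis), against time after crush (x axis), as the limma estimate ± SE over 5 pairs, in panels for lysosomal genes, receptors and secreted proteins; dotted lines mark a 2-fold change and open symbols the separately fitted 3 months. Acp5 (3.00) and Msr1 (3.53) were far above 0 at 1 day, Trem2 (-1.11) was below, and Cd5l had its peak at 1 week (5.22).

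Cd68 encodes macrosialin, a heavily glycosylated membrane protein of endosomes and lysosomes that is used as a stain for phagocytes. At 1 day its intensity was 3039.8, 4333, 4297, 2652 and 4187 in the 5 crushed samples, against 1642, 1439, 1775, 1447 and 1674 in the contralateral samples. The groups did not overlap, and the log2 difference was 1.19 (SE 0.16, limma adjusted p = 4.2e-06). The crushed level was higher still at the next times.

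Cd68 stood at 6196, 4812, 5914, 6107 and 6963 in crushed samples at 3 days, against 1770.3, 1864, 1205, 1341 and 1339 in contralateral samples. At 1 week it was 6349.7, 5886, 3515, 7410.2 and 6462 in crushed samples, against 1499.8, 1668, 1396, 1203 and 1289.6 in contralateral samples. The log2 differences were 2.01 at 3 days and 2.04 at 1 week (SE 0.16 each, limma adjusted p = 8.2e-09 and 1.2e-08), and crushed sample 3 of 1 week was the low one. At 3 weeks the crushed samples held 2849, 4118, 2756, 2451 and 2911, against 1178, 1018, 746, 1052 and 1069 in contralateral samples, a difference of 1.57 (SE 0.16, limma adjusted p = 2.0e-06).

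Gpnmb encodes a transmembrane glycoprotein that phagocytes, osteoclasts and pigment cells place in lysosomes or melanosomes. At 1 day it stood at 1396, 2765, 2186, 2667 and 2329.9 in crushed samples, against 2319, 2036, 2429, 2473 and 3349 in contralateral samples. The groups overlapped widely and the log2 difference was -0.17 (SE 0.21, limma adjusted p = 0.51). At 3 days the crushed samples had 5164, 4148, 6865, 7749.9 and 6991, against 3342, 2910.1, 2012, 1830.2 and 2779 in contralateral samples.

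Gpnmb rose by 1.26 at 3 days (SE 0.21, limma adjusted p = 5.9e-05), with no overlap. At 1 week it was 8371, 7895, 5779, 9259 and 8561 in crushed samples, against 3169, 2317, 2255, 2190.2 and 2161 in contralateral samples. It rose by 1.72 at 1 week (SE 0.21, limma adjusted p = 1.7e-06) and by 1.35 at 3 weeks (SE 0.21, limma adjusted p = 9.7e-05), where the means were 4393 ± 629.7 in crushed and 1779.6 ± 606 in contralateral samples (SD, n = 5 each). Against naïve samples in place of contralateral ones, the 3-week difference was 0.92 and did not reach 2-fold.

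Acp5 encodes tartrate-resistant acid phosphatase, an enzyme of osteoclasts and activated macrophages. Contralateral samples were dim throughout. At 1 day Acp5 had 254, 611, 584, 441 and 965 in crushed samples, against 61.1, 52.5, 67.8, 76.2 and 70.3 in contralateral samples. It rose by 3.00 (SE 0.41, limma adjusted p = 4.0e-06), and the lowest crushed sample stood above the highest contralateral one.

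At 3 days Acp5 was 1728, 529.9, 1653, 994 and 2551 in crushed samples, against 61.6, 97.1, 91.3, 77.9 and 72.6 in contralateral samples. At 1 week it was 1979.5, 1477, 1098, 2927 and 2053 in crushed samples, against 60.2, 64.4, 330.4, 55.0 and 89.5 in contralateral samples. The differences were 4.05 and 4.31 (SE 0.41 each, limma adjusted p = 1.8e-07 and 1.0e-07), and contralateral sample 3 of 1 week was the bright one. By 3 weeks the crushed samples lay between 441 and 611 and the contralateral samples between 41.0 and 98.2, a difference of 2.86 (SE 0.41, limma adjusted p = 5.5e-05). The 7 osteoclast markers measured summed to 2468 to 3360 in crushed samples at 1 day, against 1455 to 1854 in contralateral samples, and did not overlap at 3 days, 1 week or 3 weeks either. Among them Ctsk and Nfatc1 reached an intensity of 50 on 55 arrays, Mmp9 on 53 and Oscar on 51, but Itgb3 on 5, Ocstamp on 3 and Calcr, the calcitonin receptor, on 1. Of the 4 tested, Mmp9, which neutrophils and macrophages also express, was the one called, at 1 and 3 days. The part of osteoclast-type cells in the Acp5 values was not tested.

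Msr1 encodes the class A macrophage scavenger receptor, which binds modified lipoproteins. Of the 3 receptor genes it alone was called higher at 1 day. At 1 day it stood at 2645, 3004, 3803, 1805 and 3504 in crushed samples, against 323, 236, 225, 301 and 179 in contralateral samples. At 3 days it was 3853, 2881, 2788, 2851 and 3818 in crushed samples, against 441, 489, 213, 497 and 161 in contralateral samples. No crushed sample came near a contralateral one, and the differences were 3.53 and 3.30 (SE 0.29 each, limma adjusted p = 4.8e-09 and 2.3e-08).

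At 1 week Msr1 was 2031, 1929, 855, 1435 and 2170.4 in crushed samples, against 149.6, 216, 305, 286 and 399 in contralateral samples (difference 2.64, SE 0.29, limma adjusted p = 5.6e-07). At 3 weeks it was 436, 515, 432, 269 and 533 in crushed samples, against 337, 290.1, 289.8, 207 and 338 in contralateral samples. The groups overlapped at 3 weeks and the difference of 0.56 did not pass (SE 0.29, limma adjusted p = 0.18). The other 3 Msr1 probe sets rose by 2.06 to 4.01 at 1 day and by 2.17 to 3.79 at 3 days. They rose by 1.52 to 2.68 at 1 week. At 3 weeks they differed by 0.21 to 0.77, all under 2-fold. The dimmest set had 2.06 at 1 day and 2.17 at 3 days, the reverse of the order in the brightest set.

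Cd36 encodes a class B scavenger receptor for oxidized lipoproteins and long-chain fatty acids, which endothelial cells and adipocytes carry as well as macrophages. At 1 day Cd36 had 721, 673, 1135, 977 and 1339 in crushed samples, against 1012, 1270.0, 291, 646 and 1221 in contralateral samples. The 2 groups covered the same range (difference 0.26, SE 0.38, limma adjusted p = 0.59), and the sign turned to -0.17 without pair 3, which holds the low contralateral sample.

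At 3 days Cd36 was 1487, 1190.4, 1796, 1929 and 2319.9 in crushed samples, against 209, 779, 1074, 222 and 375 in contralateral samples. At 1 week it was 2845, 1460.0, 2838, 3292 and 3936 in crushed samples, against 566, 829, 761, 1133 and 1055 in contralateral samples. It rose by 1.99 and 1.70 (SE 0.38 each, limma adjusted p = 0.00030 and 0.0012) without overlap. At 3 weeks, 1695, 1058, 1936, 819 and 1388 in crushed samples overlapped 557, 1111, 1289, 391 and 404 in contralateral samples, and the difference of 0.99 (SE 0.38) missed both thresholds (limma adjusted p = 0.067). Both other Cd36 probe sets rose at 3 days and 1 week, by 1.5 to 2.56, and neither passed at 1 day or 3 weeks.

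Trem2 encodes a lipid-sensing receptor of microglia and macrophages that signals through the adaptor Tyrobp. It was the only one of the 8 genes called lower at any time. At 1 day Trem2 was 347, 374, 569, 187 and 473 in crushed samples, against 706, 783, 1037, 686 and 788 in contralateral samples. Each crushed sample lay under every contralateral one, and Trem2 fell by 1.11 (SE 0.27, limma adjusted p = 0.0017). Against naïve samples the fall was 0.66 (limma adjusted p = 0.031) and no longer reached 2-fold, and it was 0.92 without pair 4, which holds the lowest crushed sample.

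At 3 days Trem2 was 2744, 1263, 2134, 2198 and 2937 in crushed samples, against 783, 849, 631, 692 and 626 in contralateral samples. At 1 week it was 3425, 3266, 1168, 4036 and 3652 in crushed samples, against 831, 813, 866, 489.6 and 678 in contralateral samples. The rises were 1.61 and 1.99 (SE 0.27 each, limma adjusted p = 8.8e-05 and 7.9e-06), and crushed sample 3 stood low at 1 week as it did for Cd68. Trem2 was still up by 1.40 at 3 weeks (SE 0.27, limma adjusted p = 0.00095), with means of 1794 ± 388 in crushed and 693 ± 187 in contralateral samples (SD, n = 5 each). A second Trem2 probe set stayed dim, at 3.94 to 46.6 over all arrays, and was not tested. Averaged with it on the log2 scale, Trem2 differed by -0.55, 0.72, 0.995 and 0.72 at the 4 times, each under 2-fold, with limma adjusted p between 6.9e-05 and 0.0077. Because the second set lay near the floor of 20 in both groups, averaging shrinks each difference by construction. It cannot show how stable the differences of the brighter set were.

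Cd5l encodes a secreted macrophage protein, also called apoptosis inhibitor of macrophages, that is bound to IgM in blood. At 1 day it was at or near the lower limit of measurement in both groups, with 18.6, 14.3, 39.8, 17.4 and 19.2 in crushed samples, against 9.54, 13.8, 23.4, 10.4 and 12.7 in contralateral samples. The difference was 0.15 (SE 0.38, limma adjusted p = 0.76). At 3 days Cd5l was 267, 154, 402, 546 and 515 in crushed samples, against 16.2, 30.2, 27.0, 12.3 and 17.3 in contralateral samples.

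At 1 week Cd5l was 1072, 1339, 371, 1153 and 928 in crushed samples, against 24.5, 26.4, 30.4, 15.5 and 18.7 in contralateral samples. Every crushed sample was more than 10 times as bright as any contralateral sample. The log2 differences were 3.89 at 3 days and 5.22 at 1 week (SE 0.38 each, limma adjusted p = 1.0e-07 and 3.2e-09), and because the contralateral values lay near the floor of 20, they depended on it: with a floor of 50 they were 2.77 and 4.16. At 3 weeks Cd5l was 99.7, 275, 263, 70.4 and 135 in crushed samples, against 48.0, 20.2, 32.8, 35.1 and 33.0 in contralateral samples, with a difference of 2.17 (SE 0.38, limma adjusted p = 0.00035).

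Lpl encodes lipoprotein lipase, which releases fatty acids from circulating triglyceride and is made by adipocytes, muscle and macrophages. At 1 day it had 1053, 537, 1728, 839 and 1110.3 in crushed samples, against 604, 610.1, 547, 300.4 and 833 in contralateral samples. Crushed was higher in 4 of 5 pairs and the groups overlapped. The difference of 0.84 stayed under 2-fold (SE 0.30, limma adjusted p = 0.024).

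At 3 days Lpl was 1897, 1223, 2189, 2309.6 and 3232 in crushed samples, against 411, 523, 389, 338 and 561 in contralateral samples (difference 2.24, SE 0.30, limma adjusted p = 6.1e-06). At 1 week it was 4082, 3344, 4736, 4668 and 5184 in crushed samples, against 651, 858, 3404, 759 and 583 in contralateral samples. The overlap came from contralateral sample 3, and the difference was 2.17 (SE 0.30, limma adjusted p = 8.8e-06). At 3 weeks Lpl was still up by 2.45 (SE 0.30, limma adjusted p = 1.1e-05), with 1836, 3418, 2458, 1189 and 2026 in crushed samples, against 525, 671, 304, 230.1 and 307 in contralateral samples. The second Lpl probe set rose at these 3 times by 2.69 to 3.16 and, unlike the brighter one, also at 1 day, by 1.31 (SE 0.39, limma adjusted p = 0.0081).

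**Figure D2:**
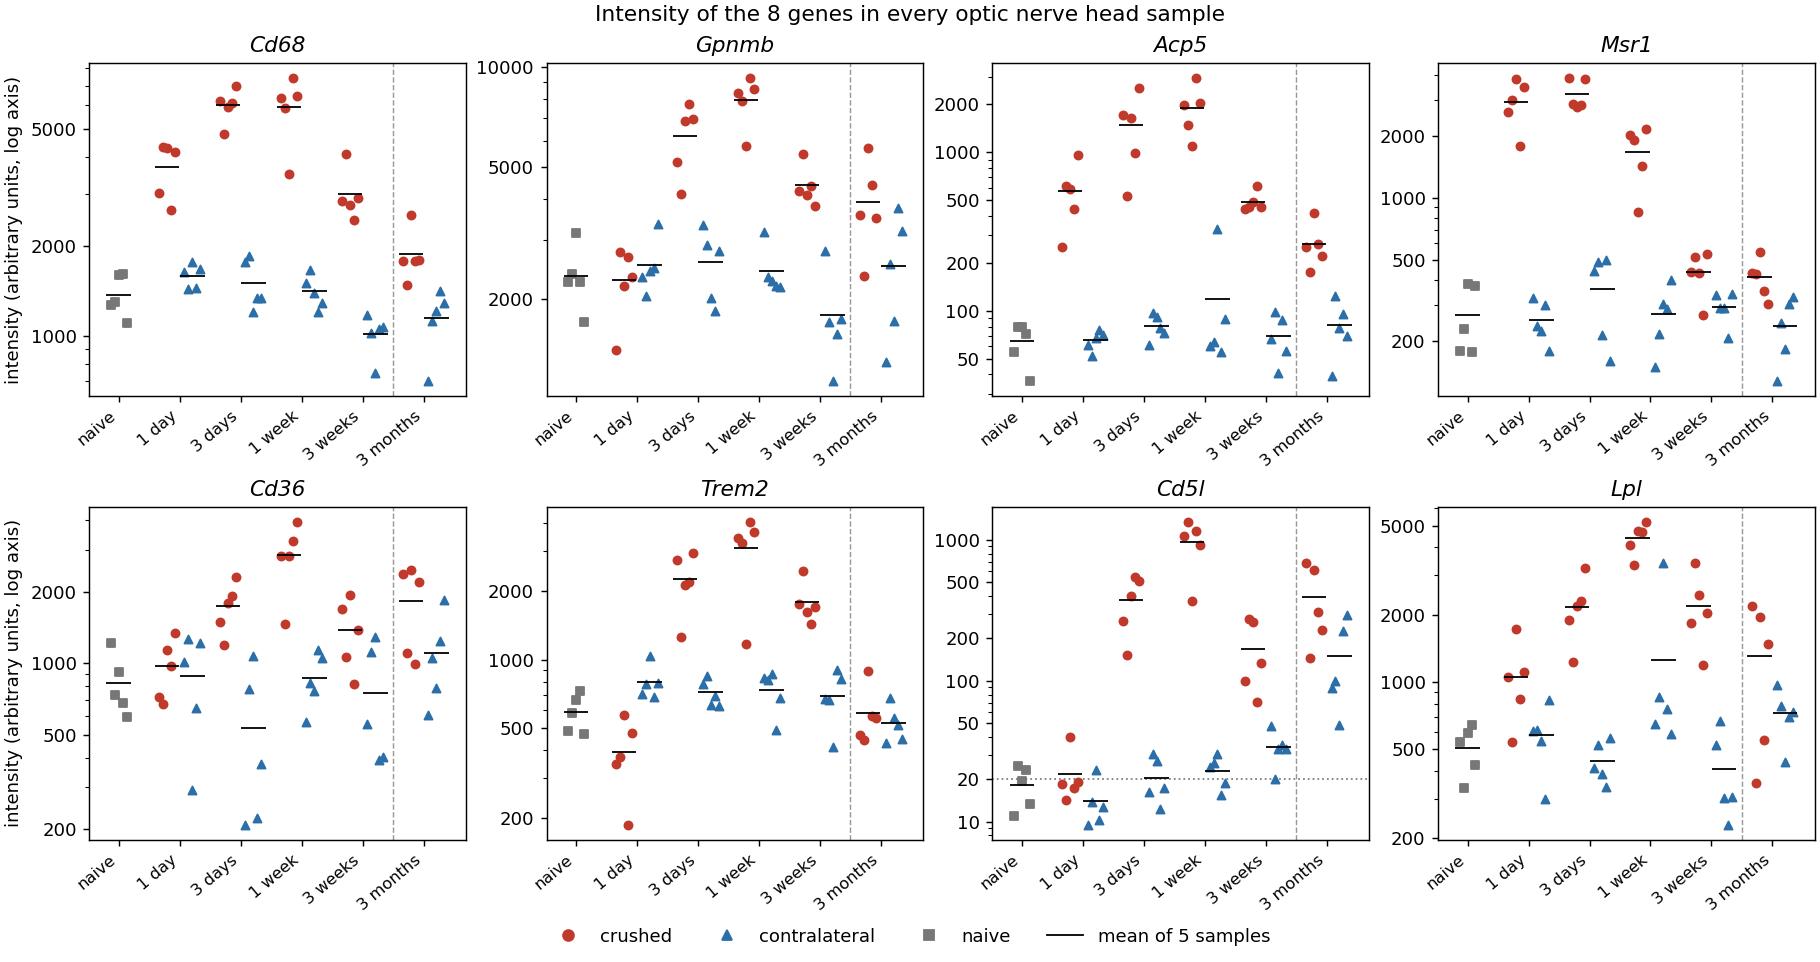
Intensity (y axis, arbitrary units, log axis) of the brightest probe set of each gene in all 55 samples, with naïve samples at the left and crushed (red circles) beside contralateral samples (blue triangles) at each time (x axis); black lines are means of 5 samples, the dashed line sets off the separate 3-month batch, and the dotted line in the Cd5l panel is the floor of 20. At 3 days no crushed sample overlapped a contralateral one for any of the 8 genes, and at 1 day the Trem2 samples of the crushed side (187 to 569) lay under all contralateral ones (686 to 1037).

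Whether the response itself changed with time was tested as a difference between crush effects. From 1 day to 3 days the effect grew for 5 of 8 genes (4.93% of all probe sets called, 3.9% larger and 1.03% smaller): Gpnmb by 1.44 (SE 0.29), Cd36 by 1.73 (SE 0.54), Trem2 by 2.72 (SE 0.39), Cd5l by 3.73 (SE 0.54) and Lpl by 1.41 (SE 0.43), with limma adjusted p between 0.00010 and 0.035 except for Trem2 (8.9e-05). Cd68 grew by 0.82 (limma adjusted p = 0.022) and so by less than 2-fold. The calls for Cd36 and Lpl were not stable, and only Gpnmb, Trem2 and Cd5l stayed called when pair 1, 2 or 5 of 1 day or pair 4 or 5 of 3 days was left out. Msr1 differed by -0.24 (SE 0.41, limma adjusted p = 0.77) and Acp5 by 1.05 (SE 0.59, limma adjusted p = 0.26).

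From 3 days to 1 week limma called none of the 8 genes (3.12% of all probe sets, 1.08% larger and 2.04% smaller), and 1 had an unadjusted p under 0.05 (25.2% of all probe sets), Cd5l with a further 1.33 (SE 0.54, limma adjusted p = 0.12). From 1 week to 3 weeks the effect shrank for Msr1 by -2.07 (SE 0.41, limma adjusted p = 0.0025) and for Cd5l by -3.05 (SE 0.54, limma adjusted p = 0.00098), 2 of 8 genes (4.5% called, 1.4% larger and 3.1% smaller). Acp5 changed by -1.45 (SE 0.59, limma adjusted p = 0.10), and without pair 3 of 1 week by -2.09 (limma adjusted p = 0.0057). The effects at 3 weeks and 1 day differed for 5 genes (12.8% called, 6.8% larger and 6% smaller): Gpnmb by 1.53, Trem2 by 2.51, Cd5l by 2.02 and Lpl by 1.62 were larger at 3 weeks, and Msr1 by -2.97 was smaller. Msr1 was thus up and Trem2 down at 1 day, while at 3 weeks Trem2 was up and Msr1 did not pass.

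At 3 months, in a separate batch and model, limma called none of the 8 genes (0.462% of all probe sets, 0.207% higher and 0.255% lower), 4 had an unadjusted p under 0.05 (Acp5, Cd68, Msr1 and Cd5l; 14.1% of all probe sets), and the criteria of the study's methods were met by 1, Acp5 (0.566% of all probe sets). Acp5 was 254, 175, 413, 263 and 221 in crushed samples, against 39.0, 124, 78.7, 96.6 and 69.5 in contralateral samples. The groups did not overlap, and the difference of 1.74 (SE 0.34) had a limma adjusted p of 0.084, or 0.017 in a fit without pairs. Cd68 did not overlap either (2 of 8 genes, 3.51% of all probe sets), with 1783, 1488, 2562, 1786 and 1802 in crushed samples, against 703, 1122, 1209, 1409.8 and 1289 in contralateral samples (difference 0.73, SE 0.19, limma adjusted p = 0.16). Contralateral sample 1, the lowest of its group for both genes, differed in cell type markers. Its 16 microglia and macrophage markers summed to 33267, against 46828 to 58297 in the other contralateral samples. Its 12 photoreceptor genes summed to 134135, the highest sum of all 55 arrays. Its 12 muscle genes summed to 7139, against 715 to 937 in the others. The part of this sample's content in the Acp5 and Cd68 differences was not tested.

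Cd5l at 3 months stood at 681, 146, 608, 306 and 229.9 in crushed samples, against 88.9, 99.2, 49.0, 228 and 291 in contralateral samples. Both groups were spread over a wide range and overlapped (difference 1.44, SE 0.60, limma adjusted p = 0.35). These contralateral values were above the 9.54 to 48.0 of the earlier contralateral samples, but time, age and batch cannot be told apart in that comparison. Trem2 averaged 584 ± 181 in crushed and 524 ± 98.3 in contralateral samples (SD, n = 5 each), a difference of 0.13 (SE 0.21, limma adjusted p = 0.78). Msr1 differed by 0.84, Cd36 by 0.73, Gpnmb by 0.69 and Lpl by 0.57, with limma adjusted p between 0.32 and 0.57.

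Adipocyte markers differed between samples and moved with some of these values. The 9 adipocyte genes measured summed to 32228 in crushed sample 3 of 1 week, where the other crushed samples of that time had 2145 to 8197, and to 24280 in contralateral sample 3, where the others had 578 to 893. Adipoq, the adiponectin gene that defines fat cells, was at 6097 in that crushed sample, against 7.02 to 428 in the other 4, and at 4429 in that contralateral sample, against 4.24 to 12.6 in the other 4. The same contralateral sample held the highest contralateral values of Lpl (3404) and Acp5 (330.4) at 1 week. Its crushed partner, sample 3, held the lowest crushed values of Cd68 (3515), Gpnmb (5779) and Acp5 (1098) at that time. That crushed sample was also the lowest for Msr1 (855), Trem2 (1168) and Cd5l (371), but not for Lpl or Cd36. Its 16 microglia and macrophage markers had the lowest sum of the crushed samples of 1 week (82909). Without this pair, all 8 genes still rose at 1 week, Lpl by 2.60, Acp5 by 4.95, Trem2 by 2.38 and Cd36 by 1.65.

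At 3 months the adipocyte sum was 19732, 2709, 6093, 1215 and 10305 in crushed samples, against 2202, 10635, 1052, 1257 and 1292 in contralateral samples. Lpl was high in the same crushed samples 1, 3 and 5, with 2183, 354, 1954, 552 and 1475 in crushed samples, against 967, 780.4, 440.3, 701 and 732 in contralateral samples. Cd36 was likewise high in crushed samples 1, 3 and 5, with 2387, 1109.8, 2483, 991 and 2209, against 605, 1053, 789.7, 1247 and 1854 in contralateral samples. With the mean log2 intensity of the adipocyte genes as a covariate, an alternative added after the data were seen, the 3-month difference was -0.18 for Lpl and 0.24 for Cd36, and at 1 week it was 2.03 for Lpl and 1.32 for Cd36, both still called. Contralateral sample 2, with an adipocyte sum of 10635, had Lpl at 780.4 and Cd36 at 1053, within the range of its group. Muscle markers differed too. The 12 muscle genes summed to 48619 in crushed sample 3 of 3 months, against 881 to 1021 in the other crushed samples. The parts of adipocyte and muscle RNA in these values were not tested beyond that.

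**Figure D3:**
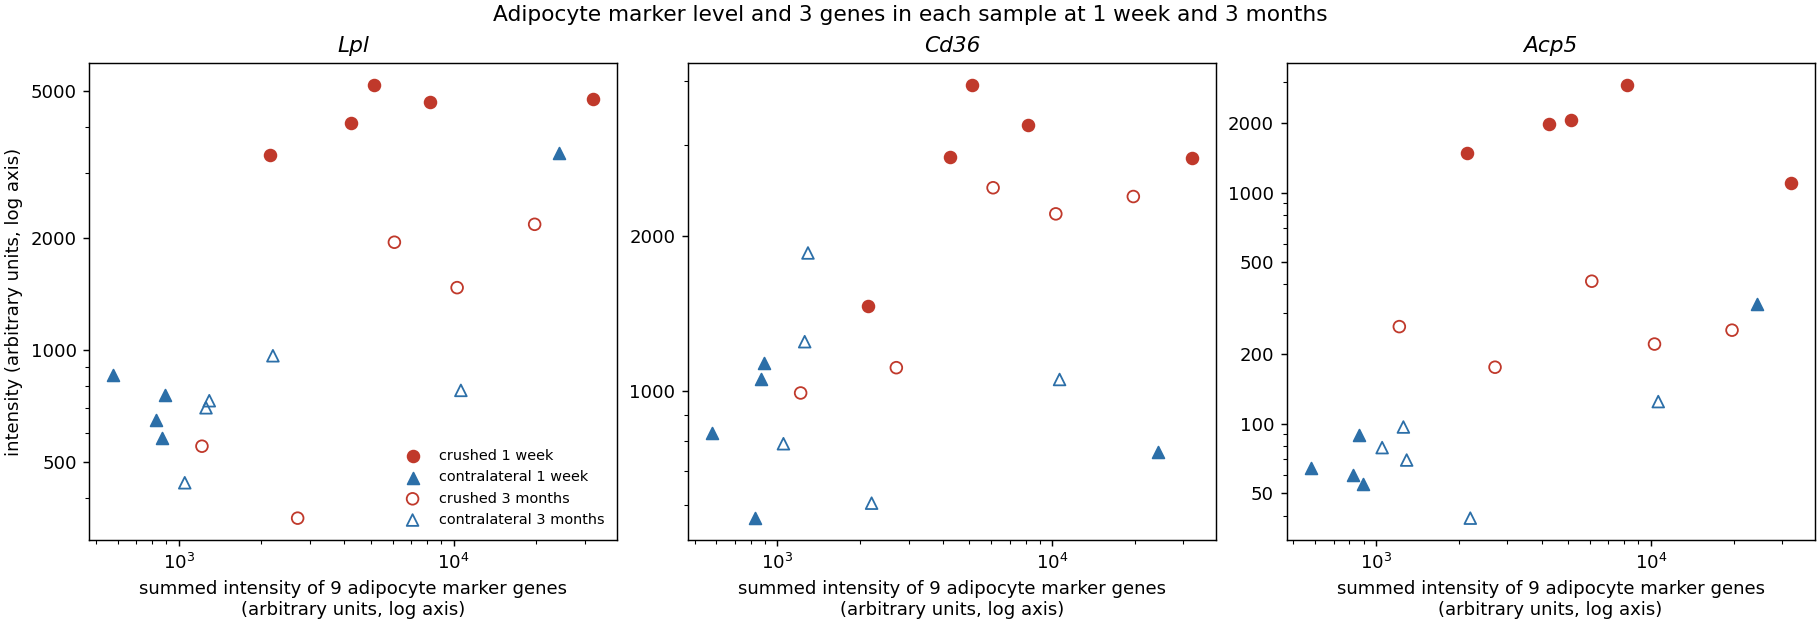
Intensity of Lpl, Cd36 and Acp5 (y axes, log axis) against the summed intensity of 9 adipocyte marker genes (x axes, log axis) in each crushed (circles) and contralateral sample (triangles) at 1 week (filled) and 3 months (open), all in arbitrary units. One contralateral sample of 1 week lies far to the right, at a sum of 24280, with Lpl at 3404 and Acp5 at 330.4, while Cd36 (761) is within the range of its group. Its crushed partner, at a sum of 32228, had the lowest crushed Acp5 of 1 week (1098).

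Contralateral ONHs were then set against naïve ONHs. Naïve and operated mice may differ in age at collection. Here and in the other comparisons with naïve samples, age cannot be told apart from surgery. Limma called none of the 7 genes tested at any of 4 times (0% of all probe sets at 1 and 3 days, 0.112% at 1 week with 0.0589% higher and 0.0536% lower, and 0.691% at 3 weeks with 0.321% higher and 0.37% lower), none met the criteria of the study's methods, though 0.00442%, 0.00442%, 0.0177% and 0.0398% of all probe sets did. An unadjusted p under 0.05 was found for 1, 0, 1 and 2 of the 7 genes at the 4 times, and for 6.79%, 5.55%, 14.4% and 27.7% of all probe sets, so at 3 weeks the share of the genes was that of the array. Cd5l was too dim to be tested. These genes were Trem2 at 1 day (0.45, SE 0.18), Lpl at 1 week (0.97, SE 0.37), and Cd68 (-0.44, SE 0.14) and Gpnmb (-0.43, SE 0.20) at 3 weeks. The Lpl difference was 0.51 without contralateral sample 3, the one rich in adipocyte markers. Cd68 at 3 weeks was 1178, 1018, 746, 1052 and 1069 in contralateral samples, against 1265, 1299.9, 1596, 1617 and 1099 in naïve samples. The groups overlapped in 1 contralateral sample, and the limma adjusted p of 0.039 went with a change under 2-fold.

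Over the 25 naïve and contralateral samples of the first batch, the highest value was 2.50 times the lowest for Cd68, 2.51 times for Trem2, 2.97 times for Gpnmb and 3.32 times for Msr1, but 6.18 times for Cd36, which ran between 209 and 1289. For Lpl (14.8 times) and Acp5 (9.06 times) the highest value was that of contralateral sample 3 of 1 week. The 3 lowest Cd36 values, 209 and 222 at 3 days and 291 at 1 day, were in samples whose 11 pigment cell genes summed to 11077, 9680 and 7470, while the naïve samples had 22412 to 31572. Across the 25 samples Cd36 and the pigment sum correlated with Pearson's r = 0.59 (permutation p = 0.0022, adjusted over 8 genes 0.018) and Spearman's rho = 0.37 (permutation p = 0.073, adjusted 0.19). Without the 2 samples farthest from the median pigment sum r was 0.38, so its size depended in part on those samples. This smaller r had the same sign and was not tested. No other gene passed in this family of 8.

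The promoters of the genes were searched for short motifs known from phagocyte genes, since the 8 genes all rose at 3 days and 1 week. RefSeq promoter sequences, 250 bases before to 50 bases after a start site (build GRCm38.p6), were at hand for 6 of the 8 genes, with 3 start sites for Acp5 and 1 for each of the others, 8 promoters in all. The AP-1 motif TGANTCA, bound by Fos and Jun proteins, was found on either strand in 3 of the 8, those of Cd68, Gpnmb and Trem2, and in 7.81% of 32851 mouse promoters of the same length. The letters GAGGAA, the core that PU.1 and other ETS factors recognize, were in 3 of the 8 (Cd68, Trem2 and Cd5l) and in 28.3% of all. Of the E-box forms used by the MiT family (Mitf, Tfeb, Tfe3 and Tfec), CACATG was in 1 Acp5 promoter and in 14.2% of all, and CACGTG in none of the 8 and in 7.15% of all. The Cd36 promoter held none of these letters. The motifs did not overlap each other. The promoters with an AP-1 match are printed 5′ to 3′ on the strand of the gene, because 1 of them belongs to a gene that rose at 1 day (Cd68), 1 to a gene that did not pass then (Gpnmb) and 1 to a gene that fell (Trem2), and the Acp5 promoter with an E-box is added. Capitals mark the AP-1, ETS and E-box letters named above, on either strand.
Cd68 promoter, chr11:69666121-69666420, minus strand: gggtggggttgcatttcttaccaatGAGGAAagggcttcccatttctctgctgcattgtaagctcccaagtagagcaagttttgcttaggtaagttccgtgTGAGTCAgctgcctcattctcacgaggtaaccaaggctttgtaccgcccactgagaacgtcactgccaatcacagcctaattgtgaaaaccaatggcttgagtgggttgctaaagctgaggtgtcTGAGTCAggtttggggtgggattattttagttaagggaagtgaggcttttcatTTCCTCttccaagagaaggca
Gpnmb promoter, chr6:49036268-49036567, plus strand: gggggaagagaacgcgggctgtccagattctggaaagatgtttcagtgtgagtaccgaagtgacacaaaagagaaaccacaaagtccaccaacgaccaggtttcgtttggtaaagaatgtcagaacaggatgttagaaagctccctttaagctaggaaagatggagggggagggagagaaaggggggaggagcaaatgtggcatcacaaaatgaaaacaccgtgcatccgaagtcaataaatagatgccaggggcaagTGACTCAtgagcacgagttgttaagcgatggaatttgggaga
Trem2 promoter, chr17:48346151-48346450, plus strand: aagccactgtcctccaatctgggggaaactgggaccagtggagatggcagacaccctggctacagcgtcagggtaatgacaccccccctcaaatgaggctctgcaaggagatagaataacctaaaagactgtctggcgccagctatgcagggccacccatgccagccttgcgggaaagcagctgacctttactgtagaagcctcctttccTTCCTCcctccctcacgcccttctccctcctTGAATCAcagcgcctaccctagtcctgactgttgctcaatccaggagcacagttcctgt
Acp5 promoter, chr9:22130549-22130848, minus strand: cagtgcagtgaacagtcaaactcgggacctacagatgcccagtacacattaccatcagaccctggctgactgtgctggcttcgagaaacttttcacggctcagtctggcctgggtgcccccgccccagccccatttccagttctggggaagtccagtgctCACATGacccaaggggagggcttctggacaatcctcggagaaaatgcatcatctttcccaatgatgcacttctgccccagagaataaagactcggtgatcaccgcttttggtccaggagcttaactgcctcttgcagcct
In these promoters the AP-1 letters lay 149 and 24 bases before the start site in Cd68, 9 bases before it in Trem2, and 8 bases after it in Gpnmb. The same letters were thus present in genes with different differences at 1 day, and a match was not taken as a binding site.

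Trem2 signals through Tyrobp and the kinase Syk, and the other genes of that pathway were read from a list of 17, of which 16 were measured. The counts of this and the following lists stand beside 7.02%, 6.6%, 6.21% and 2.36% of all probe sets called higher at 1 day, 3 days, 1 week and 3 weeks, and 7.44%, 2.2%, 3.53% and 1.75% called lower. In crushed samples 7, 9, 11 and 4 of 16 rose at these times, and none fell. The list median was 0.66 at 1 day, when Trem2 itself had fallen by 1.11, and 1.27, 1.52 and 0.68 at the next 3 times. Syk rose by 1.86, 2.12 and 2.23 at 1 day, 3 days and 1 week, and the B-cell and myeloid kinase Btk by 1.30, 1.94 and 2.12. Spi1, which encodes the myeloid transcription factor PU.1, rose by 1.56, 1.80, 1.72 and 1.24 at 1 day, 3 days, 1 week and 3 weeks. Tyrobp was bright in all samples (4987 ± 323 in contralateral samples at 1 day) and its differences of 0.45, 0.68, 0.95 and 0.54 had limma adjusted p under the threshold but stayed under 2-fold.

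Among 19 tested genes of other scavenger and uptake receptors, 1 rose and 4 fell at 1 day, 6 rose and 0 fell at 3 days and at 1 week, and 4 rose and 1 fell at 3 weeks. Olr1, a receptor for oxidized low-density lipoprotein, was up early like Msr1, by 2.22, 2.69 and 1.76 at 1 day, 3 days and 1 week, and by 0.31 at 3 weeks, where it did not pass. Fcrls, a scavenger receptor-like gene of microglia, had the sign pattern of Trem2: it fell by 1.53 at 1 day and rose by 2.54, 2.52 and 2.43 later. Fcrls was also the one gene of these pathway lists that limma called at 3 months, at 1.91 (SE 0.24, limma adjusted p = 0.039).

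Genes that enclose and store lipid in droplets split. Of 18 tested, 2 rose and 4 fell at 1 day, 3 rose and 1 fell at 3 days, 2 rose and 1 fell at 1 week, and 1 rose at 3 weeks. Plin2, the droplet coat protein of foam cells, rose by 1.23, 1.27 and 1.23 at the first 3 times, with 8139 ± 418 in crushed and 3471 ± 143 in contralateral samples at 1 day (SD, n = 5 each). Plin4, an adipocyte coat protein, fell by 3.00, 1.95 and 2.06 against contralateral samples. Its crushed values, 11.1 to 31.8 at 1 day and 16.0 to 34.1 at 3 days, lay around the intensity floor. The size of these falls therefore depends on the floor. Contralateral Plin4 averaged 201, 96.8 and 222 at 1 day, 3 days and 1 week, above the naïve mean of 64.7. At 1 week the crushed mean was 63.2, near the naïve mean, though the crushed median was 34.9 and the naïve median 61.6. Fabp4, a fatty acid carrier of both adipocytes and macrophages, rose by 4.23, 3.68 and 3.04 at 3 days, 1 week and 3 weeks. Fabp4 is itself 1 of the 9 adipocyte genes, whose sum was 1110 to 2259 in crushed samples at 3 days, against 463 to 687 in contralateral samples. Fabp4 alone averaged 1022 and 62.4 in these 2 groups, so the sum is not separate from it. Adipoq was at 6.8 to 14.4 in crushed and 3.64 to 22.9 in contralateral samples at 3 days. The part of adipocyte RNA in the Fabp4 values was not tested.

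Of 16 tested genes of cholesterol efflux and lipid sensing, 1 rose and 2 fell at 1 day, 2 rose and 1 fell at 3 days, 5 rose at 1 week and 2 at 3 weeks. Lipa, the lysosomal acid lipase, rose by 1.11 and 1.48 at 3 days and 1 week, and Ch25h, which makes 25-hydroxycholesterol, by 1.54 and 1.5 at 1 day and 3 days. Cyp27a1, a mitochondrial sterol hydroxylase, fell by 2.24 and 1.53 at 1 day and 3 days. The cholesterol exporter Abca1 (1.03) and the lipid-activated nuclear receptor Pparg (1.04) rose at 1 week. Pparg was at 76.2 to 376.5 in crushed samples then, overlapping 44.5 to 165.4 in contralateral samples. The part of adipocyte RNA in the Pparg values was not tested. Apoe, the main brain apolipoprotein, had differences of -0.69 to -0.02 at these 4 times, all under 2-fold. At 1 day (-0.69, limma adjusted p = 1.0e-05) and 1 week (-0.43, limma adjusted p = 0.0023) it passed the p threshold. It did not at 3 days or 3 weeks.

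Of 8 tested partners of lipoprotein lipase, 3 rose at 1 day, 3 days and 1 week and 2 at 3 weeks, with 1 lower at 1 day. Apoc2, the cofactor that activates the enzyme, rose by 4.03, 4.53, 4.41 and 2.73 at 1 day, 3 days, 1 week and 3 weeks, and Angptl4, which inhibits it, by 3.47, 2.29, 2.19 and 1.20. Gpihbp1, which holds the enzyme on capillaries, was not analysed here. Of 16 tested genes of the MiT factors and the lysosome, 1, 1, 2 and 1 rose at the 4 times, a share near that of all probe sets at the first 2. Tfec, the macrophage member of that family, rose by 5.33, 4.02, 3.45 and 1.96, while Mitf differed by -0.32 to 0.03.

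Of 17 tested genes that accompany these in activated phagocytes, 3, 7, 8 and 6 rose at 1 day, 3 days, 1 week and 3 weeks and none fell. The chemokine genes Ccl3 (3.40, 2.68, 1.66 and 1.47) and Ccl4 (3.44, 2.74, 1.36 and 1.36) rose at all 4 times. The map of partner and pathway genes shows that the early risers Tfec, Apoc2, Angptl4, Ccl3 and Ccl4 had differences above 3 at 1 day, when 5 of the 8 phagocyte genes stood under 1. These partners were picked as the largest rises of their lists. The 8 genes were not picked by that rule, but they were chosen with earlier results of these data known. Among the 8, Msr1 and Acp5 also stood at 3 or above.

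**Figure D4:**
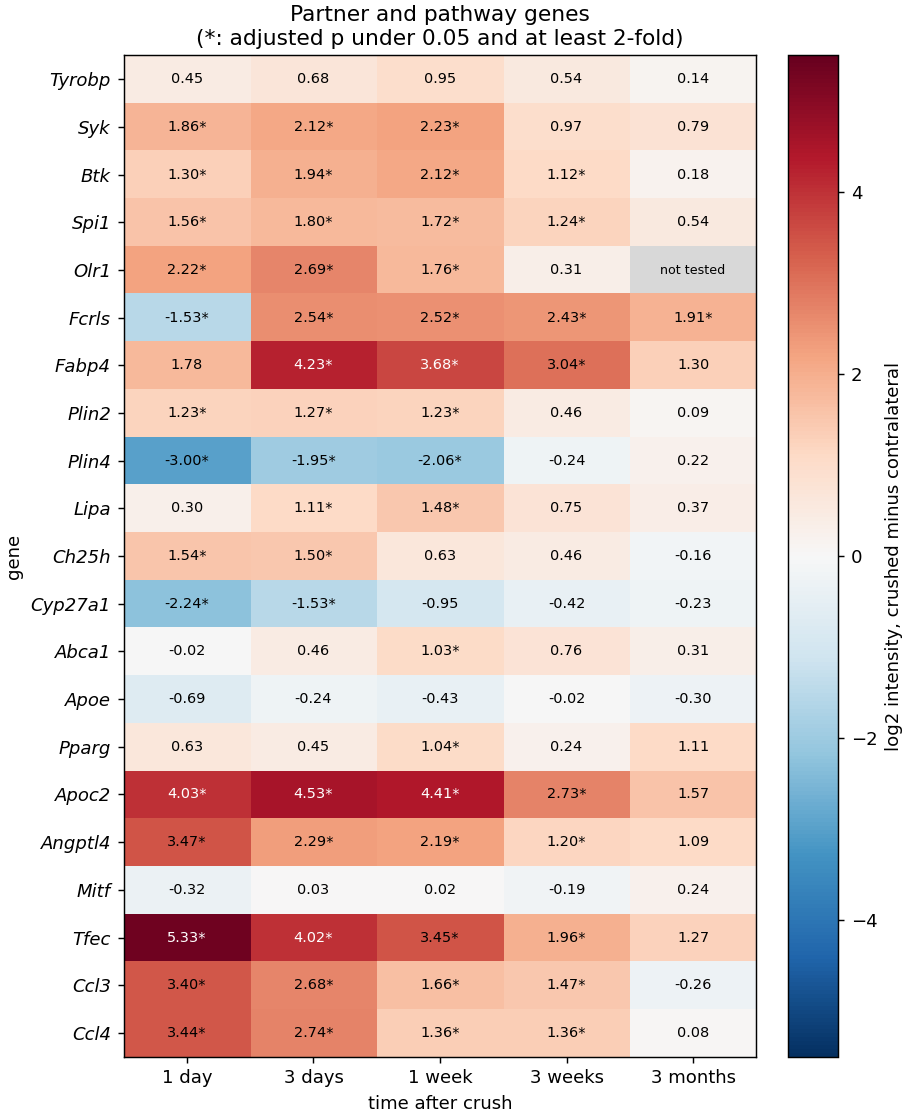
Log2 intensity difference, crushed minus contralateral (color and printed value), of 21 partner and pathway genes (rows) at the 5 times after crush (columns), with * where the limma adjusted p was under 0.05 and the change at least 2-fold. Fcrls was negative at 1 day (-1.53) and positive later, Plin4 and Cyp27a1 were negative early, and Tfec had the largest value shown (5.33).

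The genes whose differences in the 20 first-batch pairs were most like those of each gene were sought among 10762 genes by the root mean square difference on the log2 scale. They are a description, and all share the same arrays. Nearest to Cd68 were Btk (0.37), Spi1 (0.40) and Lpxn (0.40). Nearest to Trem2 were Blnk (0.52), Aoah (0.67) and Pon3 (0.69), each with a mean difference under 0 at 1 day (-0.57, -0.31 and -0.20). Nearest to Gpnmb was Plxnc1 (0.45), and nearest to Msr1 was Cfp (0.57), with mean differences of 3.40, 3.47, 2.51 and 0.76 at the 4 times. Lpl was closest to Itgax (0.73), Igf1 (0.75) and Cd68 (0.76). Cd5l had no near neighbor, with Cd28 first at 1.15, and Acp5 and Cd36 had Il7r and Plxnc1 first. Among the 8 genes the closest pair was Cd68 and Lpl (0.76), then Trem2 and Gpnmb (0.81), and the farthest was Acp5 and Trem2 (2.82).

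Markers of other cells moved at the same times. The 12 neutrophil genes summed to 20005 to 27824 in crushed samples at 1 day, against 1443 to 2922 in contralateral samples, and to 9411 to 21010 in crushed samples at 3 days, against 1098 to 1581 in contralateral samples; the granule genes Ngp and Elane reached 50 on 0 arrays and Mpo on 1. The 16 microglia and macrophage markers summed to 60933 to 83849 in crushed samples at 1 day, against 55121 to 63812 in contralateral samples, and to 82909 to 124261 at 1 week, against 53199 to 61888 in contralateral samples. Of 7 genes of resting microglia, 5 fell at 1 day, when Trem2 fell, with sums of 3545 to 6148 in crushed and 10182 to 11524 in contralateral samples, and at 1 week, when 2 fell, the sums were 11276 to 14334 in crushed and 7666 to 11268 in contralateral samples. Of 13 endothelial markers, of cells that also carry Cd36, 3 were called higher and 1 lower at 1 day, 5 higher at 3 days and 0 at 1 week, with sums of 29263 to 44339 in crushed and 20290 to 27988 in contralateral samples at 3 days, and of 22556 to 30574 in crushed and 23819 to 33171 in contralateral samples at 1 week. Lower sums were found for glia: the 9 oligodendrocyte markers had 31374 to 51082 in crushed and 63272 to 71582 in contralateral samples at 1 day, and the 13 astrocyte markers 40001 to 52570 in crushed and 74342 to 80021 in contralateral samples. The 11 genes of pigment cells, which also carry Gpnmb, summed to 6435 to 17052 in crushed samples at 1 week, against 18259 to 30896 in contralateral samples, without overlap. The part of these cell types in the values of the 8 genes was not tested.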

How the data were processed

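Total RNA of ONHs dissected free of sclera and meninges, with the start of the myelination transition zone, was amplified, biotin labeled and hybridized to Affymetrix Mouse Genome 430A 2.0 arrays. The deposited values are intensities that the authors computed in DChip with the PM/MM difference model after Invariant Set normalization. All 22690 probe sets were read, 64 controls were left out, and every value column belonged to a sample. Of the rest, 20380 probe sets had 1 gene symbol in the array annotation, 691 had several and 1555 none. A gene is represented by its brightest single-gene probe set.

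Intensities under 20 were set to 20 (9.91% of values), log2 was taken, and probe sets reaching 50 on at least 5 arrays were fitted with limma 3.58.1 (R 4.3.3, trend, Benjamini-Hochberg adjustment): 19313 in the 40 paired arrays of batch 1 (crushed and contralateral), 18823 at 3 months, fitted alone as in the study's methods, and 18669 in the 25 naïve and contralateral arrays. The pair of samples was a block, since both eyes of the same mice form a pair in the study's design. Deviations of same-numbered samples from their group means correlated at -0.43 to 0.52, over 0.1 in 8 of 25 pairs, so the numbering itself was not borne out by the data. The separate pools are the replicates, and p-values measure the spread between pools. The number of arrays limits the precision.

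The genes named are the 8 genes, the 3 nearest to each, and from each pathway list the direct partners and the 2 largest rises and falls called at 3 days. The genes and lists were chosen with earlier results of these data known. The study's criteria (at least 2-fold at the 90% lower bound, a difference of means over 100, and the methods' t-test) were run as an alternative, beside other floors, filters, normalizations, covariates and blocks and leaving out each sample or pair. The scripts were tested on simulated data. Promoters were searched with Python 3.11.15 and figures drawn with matplotlib 3.10.9.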

Additional observations from a re-analysis of the deposited data

Results flagged for a closer look

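In 8 of 88 sets of 5 samples (8 genes in 11 conditions), 1 sample stood far from the other 4 by Dixon's criterion, which chance meets in about 1 of 20 sets. Of these, 3 were in contralateral samples at 1 week: Lpl at 3404 and Acp5 at 330.4 in sample 3, and Gpnmb at 3169 in sample 1. The others were in crushed samples. Trem2 was at 1168 in sample 3 of 1 week, the low one, and at 893 in sample 3 of 3 months, the high one. Cd5l was at 39.8 in sample 3 of 1 day. At 3 weeks Cd68 was at 4118 in sample 2 and Acp5 at 611 in sample 4.

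The crush effect differed between times by limma's test of the difference in 12 of 32 gene and time contrasts. From 1 day to 3 days it differed by 1.44 for Gpnmb, 1.73 for Cd36, 2.72 for Trem2, 3.73 for Cd5l and 1.41 for Lpl. From 1 week to 3 weeks it differed by -2.07 for Msr1 and -3.05 for Cd5l. Between 3 weeks and 1 day it differed by 1.53 for Gpnmb, -2.97 for Msr1, 2.51 for Trem2, 2.02 for Cd5l and 1.62 for Lpl.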

How the results depend on the processing

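Counts of the 8 genes called stayed within 1.5 times of the reported count in 180 comparisons with alternatives that used all samples and moved beyond it in 7. The exceptions were 1 gene (Cd5l) in place of 0 from 3 days to 1 week with a floor of 50, 3 in place of 5 from 1 day to 3 days with the adipocyte covariate or the pigment covariate (both chosen after seeing the data), 1 (Acp5) in place of 0 at 3 months with no replicate block, with the pair as a random block or by the criteria of the study, and 2 in place of 4 at 1 day by those criteria. The pairing changed no other count by over 1.5 times. With 1 sample or pair left out, counts ran from 3 to 5 for the change from 1 day to 3 days, 3 to 5 at 1 day, 8 to 8 at 3 days and at 1 week, and 6 to 7 at 3 weeks.

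Signs turned only for differences that were not called. Between 3 days and 1 week Lpl was 0.037 after quantile normalization, 0.19 with the pigment covariate and 0.13 as the mean over probe sets, Cd36 was 0.14 with the pigment covariate, and Cd68 was -0.00504 with the photoreceptor covariate. Acp5 between 1 day and 3 weeks was 0.017 after quantile normalization. At 3 months Trem2 was -0.10 and Lpl -0.18 with the adipocyte covariate. Leaving out pairs, the range was -0.17 to 0.55 for Cd36 at 1 day, -0.38 to 0.054 for Acp5 between 1 day and 3 weeks, -0.13 to 0.20 for Cd68, -0.14 to 0.90 for Acp5 and -0.33 to 0.35 for Lpl between 3 days and 1 week, -0.14 to 0.52 for Lpl between 1 and 3 weeks, and -0.011 to 0.31 for Trem2 at 3 months. The causes were not tested. Contralateral Cd5l values lay near the floor, so the size of its differences depends on it. Averaging the 2 Trem2 probe sets took Trem2 under 2-fold at 1 and 3 days and at 1 and 3 weeks, which follows from the second set lying near the floor.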
